A study of Mus musculus with 9 samples.

Results

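The genes described here make bile acids in the liver or receive the FGF signal that holds bile acid synthesis in check. The 9 genes are Cyp7a1, Cyp8b1, Cyp27a1, Cyp39a1, Hsd3b7, Baat, Slc27a5, Fgfr4 and Klb, and their members on the array were the probes carrying 1 of these gene names in the array files. The rule found 15 probes of the 41174 on the array, and all 9 genes were among the 17633 features tested. Liver RNA came from 16-week-old male C57bl/6J mice fed 1 of 3 diets for 12 weeks, with 3 livers per diet and 1 array per liver. The food of the HFD+APS group was a high-fat diet (60 kcal% fat) into which 40 g of Astragalus polysaccharides (APS), plant carbohydrates of traditional Chinese medicine, had been mixed per kg. The HFD group had that high-fat diet alone, and the chow group had chow food. The series title names nonalcoholic fatty liver as the subject. The 9 livers were picked out of a 24-mouse study by their histology and triglyceride results, so the p-values measure the spread between selected livers.

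Hepatocytes turn cholesterol into bile acids along a classic route, which Cyp7a1 opens, and an alternative route, which Cyp27a1 opens and Cyp7b1 continues. Cyp8b1 is needed to make cholic acid, Hsd3b7 changes the sterol ring in both routes, and Slc27a5 and Baat activate bile acids and join them to amino acids, mostly taurine in mice. Bile acids that reach the ileum induce the hormone Fgf15, which travels to the liver and acts on the receptor Fgfr4 together with its co-receptor Klb (beta-Klotho), and this signal represses Cyp7a1. The bile acid receptor Nr1h4 (FXR) and its target Nr0b2 (SHP) act in the same feedback, and Hnf4a and Nr5a2 (LRH-1) drive Cyp7a1 and Cyp8b1.

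Each level rests on 60-base probes, of which 6 are shown. Each probe shown has at least 1 forward reading frame without a stop codon among its complete codons. All are written 5′ to 3′ as the array file lists them, with mm9 coordinates. The Cyp7a1 probe A_51_P290981 is listed on the minus strand over chr4:6195632-6196238, a span of 607 bases for a 60-base probe, the Cyp27a1 probe A_51_P112817 at chr1:74782203-74782262 (plus strand), the Baat probe A_52_P43150 at chr4:49502933-49502992 (minus strand) and the Slc27a5 probe A_51_P289742 at chr7:13573924-13573983 (minus strand). The other 2 are the Fgfr4 probes A_52_P686383 at chr13:55269225-55269284 and A_52_P144363 at chr13:55269360-55269419, both on the plus strand. The array file assigns them to a splice variant of Fgfr4, apart from the transcript of the main Fgfr4 probe, and they are shown because their HFD against chow differences had opposite signs.
Cyp7a1 A_51_P290981: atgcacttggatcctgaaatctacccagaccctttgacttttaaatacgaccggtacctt
Cyp27a1 A_51_P112817: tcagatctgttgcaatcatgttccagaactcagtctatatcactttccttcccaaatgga
Baat A_52_P43150: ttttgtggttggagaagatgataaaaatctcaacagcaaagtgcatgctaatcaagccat
Slc27a5 A_51_P289742: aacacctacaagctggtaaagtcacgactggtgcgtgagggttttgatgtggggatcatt
Fgfr4 variant A_52_P686383: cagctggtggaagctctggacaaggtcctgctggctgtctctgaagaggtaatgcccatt
Fgfr4 variant A_52_P144363: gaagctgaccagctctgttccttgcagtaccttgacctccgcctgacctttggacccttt

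Promoter sequences were matched for 5 of the 9 genes (Cyp8b1, Cyp27a1, Hsd3b7, Fgfr4 and Klb), from RefSeq on GRCm38.p6, as the 250 bases before the start of each gene. The Cyp8b1 promoter, chr9:121916306-121916555 on the minus strand, is shown because it holds letters known as binding motifs of Hnf4a and Nr5a2. Capitals mark an HNF4 motif (CAAAGTCCA) at bases 67 to 59 before the start, an LRH-1 motif (CAAGGNCA) at bases 60 to 53 that overlaps it, and a TATA box (TATAAA) at bases 31 to 26.
Cyp8b1 promoter: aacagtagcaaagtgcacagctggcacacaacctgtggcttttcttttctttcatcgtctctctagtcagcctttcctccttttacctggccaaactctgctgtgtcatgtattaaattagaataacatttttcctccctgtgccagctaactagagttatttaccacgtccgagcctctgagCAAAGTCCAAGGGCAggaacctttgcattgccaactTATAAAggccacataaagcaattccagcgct
Searched on both strands, these letters occur in 0.384%, 5.53% and 12.4% of 32851 promoter windows of the same length, and the nuclear receptor core motif AGGTCA occurs in 14.0%. None of the 4 motifs was found in the windows of Cyp27a1, Hsd3b7, Fgfr4 and Klb. The motifs were chosen with the Cyp8b1 sequence in view, and a match describes letters, not binding.

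Levels are log2 processed signals after subtracting the array's own 75th percentile, so a level of 0 equals that percentile and an increase of 1 is a doubling. Before scaling, that percentile lay between 209.7 and 264.7 signal units. The arrays sat on 3 slides, with chow on 1, all HFD arrays and HFD+APS 1 on another, and HFD+APS 2 and 3 on the third. On the HFD slide 50.4 to 54.1% of the spots stood well above background, against 61.5 to 68.4% on the other slides. Chow and its slide cannot be told apart, while HFD+APS can be set against HFD within 1 slide through HFD+APS 1. The defining hepatocyte genes were present, as 9 of 10 listed markers were tested and all 9 were well above background on every array. In whole liver, fewer cells of a type and less RNA per cell cannot be told apart.

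None of the 9 genes passed the threshold of a Benjamini-Hochberg adjusted p under 0.05 in limma in any of the 3 comparisons, whereas 1.50% of all features did for HFD+APS against HFD (0.476% higher and 1.03% lower), 10.9% for HFD against chow (4.55% and 6.39%) and 3.48% for HFD+APS against chow (0.964% and 2.52%). The estimates lay mostly on one side. HFD+APS against HFD gave 8 positive differences of 9, with a median of 0.58 against 0.00 over all features, and 5 had an unadjusted p under 0.05 (17.9% of all features). HFD against chow gave 7 negative ones, with a median of -0.26 against -0.04 over all features, and 2 had an unadjusted p under 0.05 (31.4% of all features). HFD+APS against chow gave 9 positive ones, with a median of 0.20 against -0.03, and 0 had an unadjusted p under 0.05 (25.2% of all features). The comparisons share groups, so their values are not independent.

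**Figure D1:**
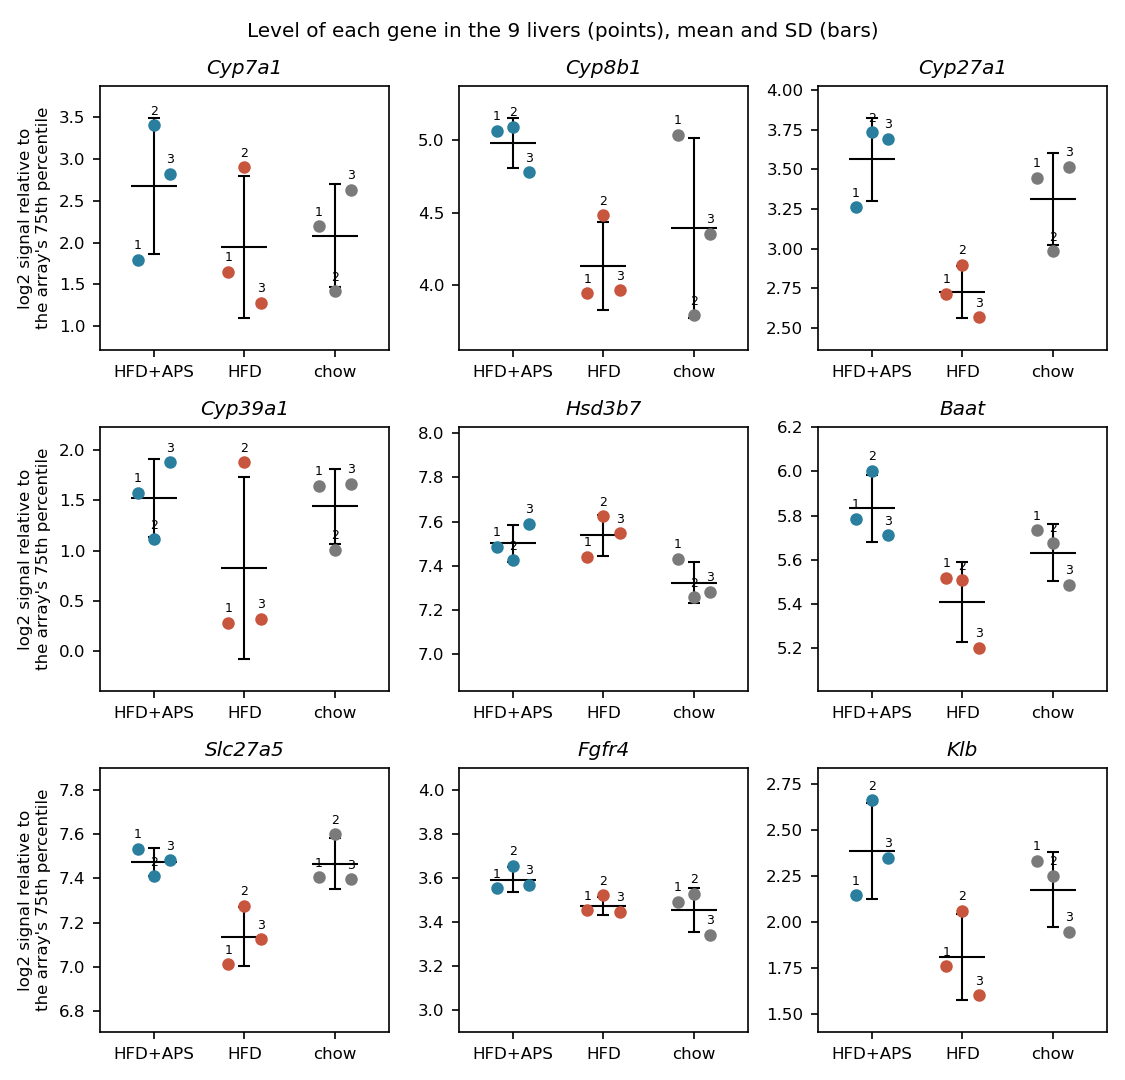
Level of each gene on the 9 arrays (points, numbered by replicate), with the group mean and SD as bars; the vertical axis is the scaled log2 signal and its range differs between panels. The HFD+APS arrays all lie above the HFD arrays for Cyp8b1, Cyp27a1, Baat, Slc27a5, Fgfr4 and Klb, while Cyp7a1, Cyp39a1 and Hsd3b7 overlap.

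Cyp7a1, the rate-limiting enzyme of the classic route, varied widely within every diet. Its brightest probe, A_52_P84027 at chr4:6193456-6193515 in mm9, read 1.80, 3.41 and 2.82 in the HFD+APS livers, against 1.65, 2.90 and 1.28 in the HFD livers and 2.19, 1.42 and 2.63 in the chow livers. The 3 groups overlapped, and 1 liver in each diet stood well apart from the other pair. The pooled within-group SD of 0.767 was larger than that of 96.1% of the features. The difference was 0.73 ± 0.54 (SE) for HFD+APS against HFD, with a 95% interval of -0.51 to 1.97 and an adjusted p of 0.511 in limma. Between HFD and chow it was -0.14 ± 0.54, with an interval of -1.38 to 1.11 and an adjusted p of 0.890. A gain or loss of more than 2-fold therefore lies inside the interval of HFD against chow. The second Cyp7a1 probe, printed above, was dimmer and followed the first closely, with a Pearson r of 0.93 over 9 arrays, so that the spread was seen by both probes. Leaving out 1 array moved the difference for HFD+APS against HFD between 0.37 (without HFD+APS 2) and 1.21 (without HFD 2).

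Cyp8b1, the sterol hydroxylase that directs synthesis towards cholic acid, read 5.07, 5.09 and 4.78 in the HFD+APS livers, against 3.95, 4.48 and 3.97 in the HFD livers and 5.04, 3.79 and 4.35 in the chow livers. Every HFD+APS liver lay above every HFD liver, and the chow livers spread over both. The difference of 0.85 ± 0.30 for HFD+APS against HFD corresponds to 1.80-fold, with a 95% interval of 0.16 to 1.53 and an adjusted p of 0.194 in limma. Among all features, 2.33% had a more positive difference in that comparison. The difference for HFD against chow was -0.26 ± 0.30 (adjusted p = 0.583). Its probe, A_51_P266618, lies at chr9:121824595-121824654 on the minus strand in mm9.

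Cyp27a1, the mitochondrial sterol hydroxylase that opens the alternative route, came nearest to the threshold of the 9 genes. It read 3.26, 3.73 and 3.69 in the HFD+APS livers, against 2.72, 2.90 and 2.57 in the HFD livers and 3.45, 2.98 and 3.52 in the chow livers. Each HFD liver was lower than every liver of the other diets, and chow 2 was the closest to them. The difference for HFD+APS against HFD was 0.84 ± 0.19, or 1.78-fold, with a 95% interval of 0.40 to 1.27 and an adjusted p of 0.0741 in limma. Between HFD and chow it was -0.59 ± 0.19, with an interval of -1.02 to -0.16 and an adjusted p of 0.0793. Cyp27a1 passed in both when the background was corrected by normexp, at 0.82 (adjusted p = 0.0462) and -0.67 (adjusted p = 0.0371). Without HFD+APS 1 the difference for HFD+APS against HFD became 0.99 (adjusted p = 0.0388). That fit had no HFD+APS array on the HFD slide, so diet and slide cannot be told apart in it. Within the HFD slide, with HFD+APS 1 alone, the difference was 0.53.

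Cyp39a1, which hydroxylates an oxysterol made mostly in the brain, was split within the HFD group. It read 1.58, 1.11 and 1.88 in the HFD+APS livers, against 0.28, 1.87 and 0.32 in the HFD livers and 1.65, 1.01 and 1.67 in the chow livers. HFD 1 and HFD 3 lay below all other livers, while HFD 2 was level with the highest of them. The SD within the HFD group was 0.907, and the differences of 0.70 ± 0.43 for HFD+APS against HFD (adjusted p = 0.433) and -0.61 ± 0.43 for HFD against chow (adjusted p = 0.368) did not pass in limma. HFD 2 weighed on both: without it they became 1.22 (adjusted p = 0.106) and -1.14 (adjusted p = 0.0645). Without HFD 1 they were 0.42 and -0.34, and without HFD 3 they were 0.45 and -0.36. The second probe, A_51_P515446, also had HFD 2 far above HFD 1 and HFD 3 (0.02 and -0.39), with an r of 0.92 to the first. The brightest probe, A_52_P557265, lies at chr17:43887373-43887432 on the plus strand in mm9.

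Hsd3b7, the dehydrogenase that serves both routes, was the only one of the 9 with a negative difference for HFD+APS against HFD. It read 7.49, 7.43 and 7.59 in the HFD+APS livers, against 7.44, 7.62 and 7.55 in the HFD livers and 7.43, 7.26 and 7.28 in the chow livers. The HFD+APS and HFD livers overlapped, and the HFD livers lay just above all chow livers. The difference was -0.04 ± 0.10 for HFD+APS against HFD (95% interval -0.27 to 0.20, adjusted p = 0.884) and 0.21 ± 0.10 for HFD against chow (interval -0.02 to 0.45, adjusted p = 0.191) in limma. Its within-group SD of 0.0904 was smaller than that of most features, so that the intervals leave little room for a large difference. Its probe, A_51_P435911, lies at chr7:134947105-134947164 on the plus strand in mm9.

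The last steps of synthesis are Slc27a5, which activates bile acids with coenzyme A, and Baat, which joins them to taurine or glycine. Slc27a5 read 7.53, 7.41 and 7.48 in the HFD+APS livers, against 7.01, 7.28 and 7.12 in the HFD livers and 7.41, 7.60 and 7.40 in the chow livers. The HFD livers lay below all the others, and the HFD+APS and chow livers covered the same range. The Slc27a5 difference was 0.34 ± 0.11 for HFD+APS against HFD (1.27-fold, adjusted p = 0.167), -0.33 ± 0.11 for HFD against chow (adjusted p = 0.0859) and 0.01 ± 0.11 for HFD+APS against chow (95% interval -0.24 to 0.26). Baat read 5.78, 6.00 and 5.71 in the HFD+APS livers, against 5.52, 5.51 and 5.20 in the HFD livers and 5.73, 5.68 and 5.49 in the chow livers. HFD+APS and HFD did not overlap for Baat, with a difference of 0.43 ± 0.13 (1.34-fold, 95% interval 0.12 to 0.73, adjusted p = 0.160), while HFD and chow did overlap (-0.22 ± 0.13, adjusted p = 0.294). The second Baat probe, printed above, followed the first with an r of 0.75 and gave a smaller difference of 0.27 ± 0.14 for HFD+APS against HFD.

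On the receptor side, Fgfr4 was nearly flat across the diets. It read 3.56, 3.66 and 3.57 in the HFD+APS livers, against 3.46, 3.52 and 3.45 in the HFD livers and 3.49, 3.53 and 3.34 in the chow livers. Every HFD+APS liver was above every liver of the other diets, by a small margin. The difference was 0.12 ± 0.09 for HFD+APS against HFD, with a 95% interval of -0.10 to 0.33, and 0.02 ± 0.09 for HFD against chow, with an interval of -0.19 to 0.23 (adjusted p = 0.537 and 0.909 in limma). A change of 2-fold in either direction lies outside both intervals. The within-group SD of Fgfr4, 0.0693, was among the lowest of the array, larger than that of 3.00% of the features. The 2 splice variant probes were far dimmer and followed the main probe, A_51_P408100 at chr13:55269977-55270036 in mm9, with an r of 0.67 and 0.51. The variant probe A_52_P144363 gave -0.16 ± 0.12 for HFD against chow, where A_52_P686383 gave 0.12 ± 0.14.

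Klb, the co-receptor that Fgfr4 needs to bind Fgf15, had larger estimated differences than Fgfr4. It read 2.15, 2.66 and 2.35 in the HFD+APS livers, against 1.76, 2.06 and 1.60 in the HFD livers and 2.33, 2.25 and 1.95 in the chow livers. The HFD+APS livers were above the HFD livers without overlap, though HFD+APS 1 exceeded HFD 2 only narrowly, and HFD overlapped chow through HFD 2. The difference was 0.58 ± 0.18, or 1.49-fold, for HFD+APS against HFD (95% interval 0.16 to 0.99, adjusted p = 0.157) and -0.37 ± 0.18 for HFD against chow (interval -0.78 to 0.05, adjusted p = 0.205). A second probe named Klb, A_52_P203368 at chr5:65740979-65741038 in mm9, lies far from the first, A_51_P464394 at chr5:65774926-65774985. It was well above background on 3 HFD+APS, 1 HFD and 3 chow arrays. It read -2.43, -2.30 and -2.73 in the HFD+APS livers, against -3.24, -3.27 and -2.58 in the HFD livers and -1.90, -2.15 and -2.47 in the chow livers, so all HFD livers were below all chow livers on it. Its HFD against chow difference was -0.86 ± 0.23 (adjusted p = 0.0510 among 26478 probes), and the mean over both probes passed in that comparison (-0.61, adjusted p = 0.0458), although the probes correlated only at 0.49.

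**Figure D2:**
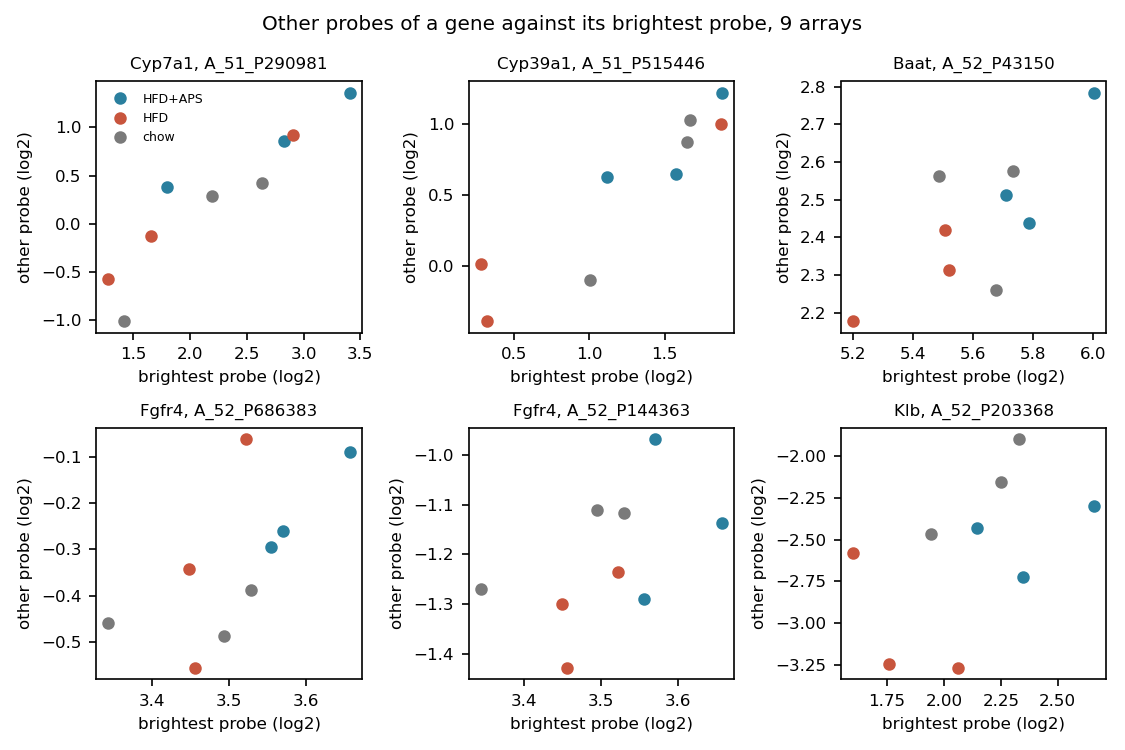
Log2 level of each further probe of a gene (vertical axis) against the gene's brightest probe (horizontal axis) on the 9 arrays, coloured by diet. The Cyp7a1 and Cyp39a1 probes follow each other closely (r of 0.93 and 0.92), and the Klb pair least (r of 0.49), with every HFD array below every chow array on the second Klb probe.

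Across the 9 genes, the HFD+APS and HFD groups did not overlap for 6, all higher in HFD+APS, against 24.5% of all features without overlap in either direction and 12.6% higher without overlap (11.8% lower). HFD and chow did not overlap for 3 genes, with Cyp27a1 and Slc27a5 lower in HFD and Hsd3b7 higher, against 38.9% of all features (22.3% lower and 16.6% higher). HFD+APS and chow did not overlap for Fgfr4 alone, which was higher in HFD+APS, against 30.9% of all features (12.7% higher and 18.2% lower). The order of the group means was HFD+APS above chow above HFD in 7 genes, an order found in 12.9% of all features. Hsd3b7 ran HFD, HFD+APS, chow from highest to lowest, and Fgfr4 ran HFD+APS, HFD, chow. The HFD+APS and chow groups, neighbours in the common order, overlapped for all genes but Fgfr4, and none of the 9 passed between them (smallest adjusted p = 0.265, for Cyp8b1). Over all 15 probes, 14 had a positive difference for HFD+APS against HFD and 11 a negative one for HFD against chow, but probes of 1 gene share its transcript.

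**Figure D3:**
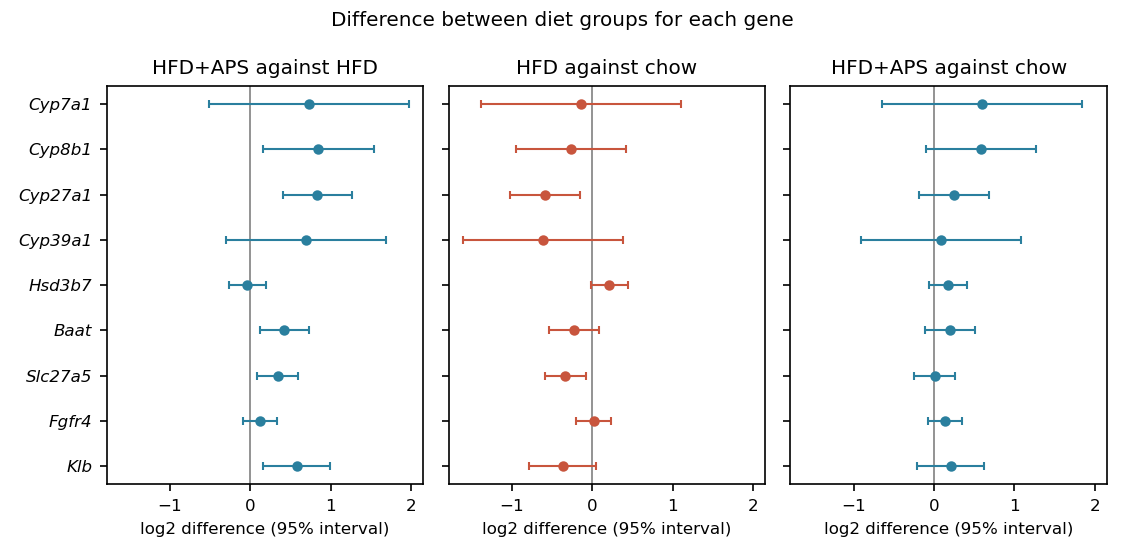
Log2 difference of each gene with its 95% interval in the 3 comparisons. The intervals of Cyp8b1, Cyp27a1, Baat, Slc27a5 and Klb lie above 0 for HFD+APS against HFD; they are not adjusted for the number of features, and none of these genes passed after adjustment.

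**Figure D4:**
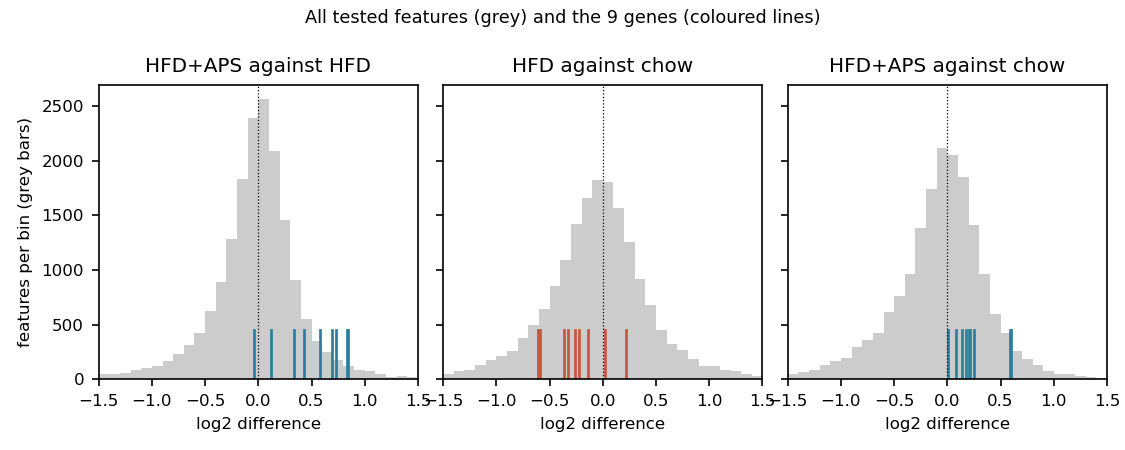
Log2 differences of all 17633 features (grey, the tails beyond the axis are not drawn) and of the 9 genes (coloured lines, whose height carries no value). Of the 9 lines, 8 lie above 0 for HFD+APS against HFD, and Cyp8b1 has 2.33% of all features above it.

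Single livers set part of this picture. HFD 2 was the highest of the HFD livers for 8 of the 9 genes, all but Baat, while HFD 3 was the lowest for 5 and HFD 1 for 4. In the HFD+APS group, replicate 2 was highest for 6 genes. Replicate 1, on the HFD slide, was lowest of that group for 4 (Cyp7a1, Cyp27a1, Fgfr4 and Klb) and highest for 1 (Slc27a5). In the chow group replicate 2 was lowest for 5, namely Cyp7a1, Cyp8b1, Cyp27a1, Cyp39a1 and Hsd3b7. The 9 genes correlated over the 9 arrays with a median r of 0.57 over 36 pairs, ranging between -0.34 and 0.93, and Baat with Klb was the closest pair. These arrays share diet groups, slides and scaling, so the r values are a description only. Within the HFD slide, HFD+APS 1 against the HFD livers gave positive differences for 7 of the 9 genes, between -0.15 and 0.93 with a median of 0.38. This sets 1 HFD+APS array against 3 HFD arrays and takes its spread to be like that of the other arrays, so the smallest adjusted p of 0.316 (for Slc27a5) says little. In that setting Cyp8b1 was at 0.93, Cyp27a1 at 0.53, Slc27a5 at 0.40 and Klb at 0.34, while Cyp7a1 turned to -0.15.

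Of the other enzymes of bile acid synthesis, 18 of 20 listed genes were tested. In HFD+APS against HFD 1 rose and 17 did not pass, and in HFD against chow 1 fell and 17 did not pass, the same gene in both. It was Cyp7b1, the oxysterol hydroxylase that follows Cyp27a1 in the alternative route. Cyp7b1 read 6.51, 6.00 and 6.69 in the HFD+APS livers, against 4.77, 5.19 and 5.04 in the HFD livers and 6.24, 5.80 and 5.65 in the chow livers. All HFD livers lay below all others, and chow and HFD+APS overlapped. It rose in HFD+APS by 1.40 ± 0.22, or 2.64-fold, against HFD (adjusted p = 0.0305 in limma), and it fell by 0.90 ± 0.22 in HFD against chow (adjusted p = 0.0409). Leaving out 1 array ended the first call in 6 of 9 fits (without chow 2 or 3, any 1 HFD array or HFD+APS 3, adjusted p up to 0.0927). It ended the second in 7 of 9, all but those without HFD+APS 1 or 2 (adjusted p up to 0.10). Within the HFD slide, with 1 HFD+APS array, the Cyp7b1 difference was 1.51 (adjusted p = 0.0919). Between HFD+APS and chow it was 0.50 (adjusted p = 0.207).

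The list's medians were 0.09 for HFD+APS against HFD and -0.04 for HFD against chow, both near those of all features. Sult2a8, a bile acid sulfotransferase, read 0.75 ± 0.23 for HFD+APS against HFD (adjusted p = 0.146). Akr1c6, an aldo-keto reductase, read 0.37 ± 0.14 for HFD against chow (adjusted p = 0.114), and Abcd3, a transporter of the peroxisome where the side chain is shortened, read -0.32 ± 0.13 (adjusted p = 0.146). In HFD+APS against chow 0 of 18 passed, with Abcd3 nearest at -0.49 ± 0.13 (adjusted p = 0.0773) and Sult2a8 next at 0.56 ± 0.23 (adjusted p = 0.174).

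Of the regulators of bile acid synthesis, all 20 listed genes were tested and 0 passed in each comparison. For HFD+APS against HFD, 4 had an unadjusted p under 0.05 in limma (17.9% of all features). For HFD against chow 1 did (31.4% of all features), and for HFD+APS against chow 3 did (25.2% of all features). Nr1h2 (LXR beta), a sterol receptor, read 0.33 ± 0.10 for HFD+APS against HFD (adjusted p = 0.150), and Tfeb, a lysosomal regulator, read -0.51 ± 0.16 (adjusted p = 0.156). Prox1, a repressor of Cyp7a1, read 0.58 ± 0.16 for HFD+APS against chow (adjusted p = 0.0786), where Tfeb read -0.50 ± 0.16 (adjusted p = 0.106). For HFD against chow the coactivators Ppargc1a and Crebbp read -0.42 ± 0.15 and -0.35 ± 0.16 (adjusted p = 0.109 and 0.173). The feedback genes named here after their values were seen did not pass either. Nr1h4 read 0.05 ± 0.13 and Nr0b2 -0.01 ± 0.28 for HFD+APS against HFD, while Hnf4a read 0.08 ± 0.20 and Nr5a2 0.08 ± 0.14 (adjusted p between 0.794 and 0.987). For HFD against chow, Nr1h4 read -0.19 ± 0.13 and Nr0b2 -0.26 ± 0.28. Hnf4a read -0.41 ± 0.20 there and Nr5a2 -0.21 ± 0.14 (adjusted p of these genes between 0.198 and 0.562 in limma). Nr5a2 was without overlap, as were 38.9% of all features.

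Of the other FGF receptors, ligands and pathway genes, 14 of 18 were tested, and Fgf15, which is made in the ileum, was well above background on 0 of the 9 arrays. Spry2, a feedback inhibitor of FGF signalling, fell by 0.88 ± 0.23 in HFD against chow (adjusted p = 0.0452 in limma), and the other 13 did not pass. Spry2 read -2.37, -2.32 and -2.73 in the HFD livers, against -1.56, -1.57 and -1.66 in the chow livers, a dim signal without overlap. The call ended in 7 of 9 fits that left out 1 array, all but those without HFD+APS 1 or 3 (adjusted p up to 0.124). It also ended with normexp, at a value of -0.38 (adjusted p = 0.0949). In HFD+APS against HFD 0 of 14 passed, and 1 had an unadjusted p under 0.05 (17.9% of all features). Fgfr2, another FGF receptor, read 0.43 ± 0.16 there (adjusted p = 0.202). Dusp6, an inhibitor of the ERK kinases downstream, read -0.69 ± 0.31 (adjusted p = 0.298). In HFD+APS against chow 0 passed, and 2 had an unadjusted p under 0.05 (25.2% of all features). Spry2 read -0.77 ± 0.23 there (adjusted p = 0.0907, or 0.0352 without HFD+APS 1), and Fgf1 read 0.64 ± 0.22 (adjusted p = 0.124). Frs2, the adaptor of FGF receptors, read -0.25 ± 0.09 for HFD against chow (adjusted p = 0.116). Fgf21 and Fgfr3 are named here after their values were seen. Both were without overlap in that comparison, as were 5 of the 14 tested genes of the list and 38.9% of all features. Fgf21, a liver hormone that also signals through Klb, read -0.97 ± 0.53 (adjusted p = 0.250). Fgfr3, another FGF receptor, read 0.71 ± 0.27 (adjusted p = 0.122).

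Of the bile acid transporters, 10 of 11 were tested and 0 passed in each comparison. For HFD+APS against HFD, 1 had an unadjusted p under 0.05 in limma (17.9% of all features). For HFD against chow 4 did (31.4% of all features), and for HFD+APS against chow 3 did (25.2% of all features). The uptake transporters Slco1a1 and Slco1a4 read 1.86 ± 0.64 and 1.12 ± 0.64 for HFD+APS against HFD (adjusted p = 0.186 and 0.392). Slco1a1 read -1.56 ± 0.64 for HFD against chow (adjusted p = 0.140), with an SD of 1.40 within the HFD group. Slco1b2, another uptake transporter, and Abcc3, an exporter towards the blood, read 0.39 ± 0.14 and 0.44 ± 0.17 for HFD against chow (adjusted p = 0.110 and 0.118). Slc51b, a subunit of a bile acid exporter named here after its values were seen, read -1.76 ± 0.67 in that comparison (adjusted p = 0.119). It was without overlap there, as were 38.9% of all features. Between HFD+APS and chow, Abcc3 read 0.50 ± 0.17 (adjusted p = 0.117) and Slc10a1 (NTCP), the main importer of conjugated bile acids, read 0.75 ± 0.26 (adjusted p = 0.127).

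**Figure D5:**
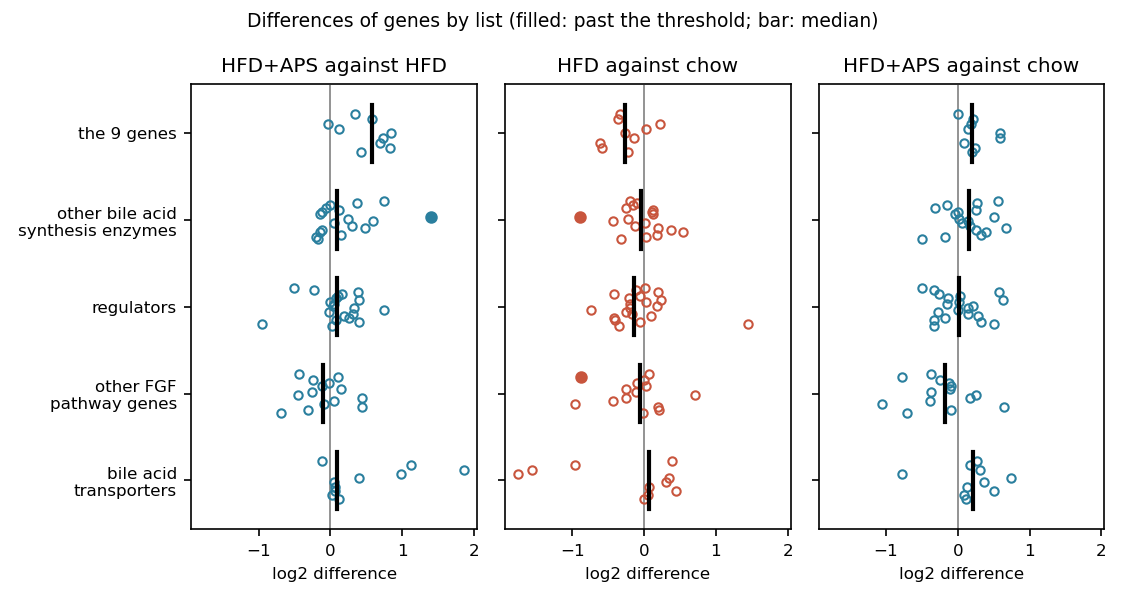
Log2 differences of the 9 genes and of 4 lists in the 3 comparisons; each circle is a gene, filled where its adjusted p was under 0.05, the black bar is the list's median, and the height within a list only follows the alphabet. Filled circles are Cyp7b1 (for HFD+APS against HFD and for HFD against chow) and Spry2 (for HFD against chow).

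Markers of cell types moved with the diets too, and their part in the results above was not tested. Of the 9 hepatocyte markers, Tat fell by 0.73 ± 0.18 in HFD against chow (adjusted p = 0.0417). Cps1 rose by 1.11 ± 0.19 in HFD+APS against HFD (adjusted p = 0.0346), and the other 8 in each comparison did not pass. Cps1 went against most of its list, as 6 of the 9 differences for HFD+APS against HFD were negative and 3 positive. Their median was -0.21, and Ttr read -0.61 ± 0.19 without overlap (adjusted p = 0.161 in limma). Leaving out any 1 array except HFD+APS 1 ended the Tat call (adjusted p up to 0.115), and the Cps1 call ended in 6 of 9 such fits, all but those without chow 2, HFD 2 or HFD+APS 1 (highest adjusted p = 0.106). The level of a list is the median of its centred genes on an array. For the hepatocyte list it lay between -0.25 and 0.14 in the HFD+APS livers, between -0.05 and 0.13 in the HFD livers and between 0.05 and 0.19 in the chow livers. The monocyte and lipid-associated macrophage list (6 of 7 tested) lay between -0.53 and 0.19 in HFD+APS, 0.16 and 1.29 in HFD and -0.56 and -0.33 in chow. For HFD against chow, 2 of its genes rose, as did 2 of 7 stellate and 2 of 6 sinusoidal endothelial markers, while 0 of 7 Kupffer cell, 0 of 5 cholangiocyte and 0 of 3 neutrophil markers passed and 1 of 7 lymphocyte markers fell. Still, 6 of the 7 Kupffer cell differences were positive there, with a median of 1.05, and 5 had an unadjusted p under 0.05 in limma (31.4% of all features). The 3 neutrophil differences were positive too, with a median of 1.67, and 0 had an unadjusted p under 0.05. For HFD+APS against HFD, 0 markers of these 7 lists passed. All 6 monocyte and lipid-associated macrophage differences were negative there, with a median of -0.78. Of these, 3 had an unadjusted p under 0.05 in limma (17.9% of all features). The 7 Kupffer cell and 3 neutrophil differences were negative too (medians -0.17 and -1.20), and 0 had an unadjusted p under 0.05. Of the 7 stellate differences 5 were negative and 2 positive, and of the 6 endothelial ones 3 were negative and 3 positive. HFD 3 had the highest neutrophil level (3.13), and chow 2 had the lowest Kupffer cell (-1.25), stellate (-0.93) and endothelial (-0.76) levels. Of the adipocyte list 1 of 5 was tested, Cidea, whose product sits on lipid droplets and which had the largest difference of all listed markers. It read -1.72, -1.53 and -1.74 in the HFD+APS livers, against 6.10, 2.98 and 4.11 in the HFD livers and -2.63, -3.08 and -2.84 in the chow livers, without overlap. It fell by 6.06 ± 0.65 in HFD+APS against HFD (adjusted p = 0.0100) and rose by 7.25 ± 0.65 in HFD against chow (adjusted p = 0.0019), and the first of these calls ended when only the groups compared were fitted (adjusted p = 0.0728). The adipocyte markers Adipoq, Plin1, Lep and Retn did not pass the filter on dim probes. Of the intestine list, which could mark tissue next to the liver, 3 of 5 were tested. Fabp2 rose by 0.99 ± 0.22 in HFD against chow (adjusted p = 0.0310), and the other 2 did not pass. Its mean was high in both groups, at 6.11 in chow and 7.11 in HFD. In HFD+APS against HFD 0 of 3 passed, with Slc10a2 nearest at -1.85 ± 0.45 without overlap (adjusted p = 0.0888).

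The genes most like Cyp7a1, Cyp8b1 and Klb were taken as the 4 features for each, named in RefSeq and outside the 9 genes, with the highest Pearson r over the 9 arrays. Those of Cyp7a1 were Mfsd14a, Rpp30, Zfp647 and Rfng, with r between 0.92 and 0.93. Those of Cyp8b1 were Macroh2a2, Psen2, Rfx4 and Bmp6, with r between 0.94 and 0.97, and those of Klb were 2510002D24Rik, Igsf21, Prr3 and Bicral, with r between 0.96 and 0.97. None of these 12 passed the threshold in any comparison. These r values were picked as the highest over 9 arrays that share diet groups, and they are given as a description.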

How the data were processed

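Total RNA from 9 mouse livers was hybridised to 9 Agilent 1-colour (Cy3) arrays. Per the file headers, the authors' Feature Extraction 10.7.1.1 gave each spot a processed intensity, which had its background subtracted and was detrended but not normalized across arrays. The authors' deposited table for the whole series holds log2 values, with medians of 4.98 to 4.99. It correlated with the log2 processed signals at 0.9969 or more, genes were not centred, and its normalization step is not given in the sources used here. Here, of 45018 spots per array, controls (1639) and spots with outlier flags were left out. Spots of the same probe were averaged as log2 values, from which the 75th percentile of the array was taken off.

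Probes well above background on at least 3 of 9 arrays were kept (26478), and the brightest represented its gene (17633 features). 1 limma 3.58.1 fit (R 4.3.3, lmFit and eBayes, 6 residual degrees of freedom) gave the 3 comparisons, with 2-sided p-values, Benjamini-Hochberg adjusted over all features. Intervals are at 95% and not adjusted. The script was tested on simulated data. The members, lists and tests were chosen with earlier results of these data known. Named were all 9 members, list genes past the threshold, and per list and comparison the 2 with the smallest p. Cell type lists held hepatocyte, cholangiocyte, Kupffer cell, monocyte or lipid-associated macrophage, neutrophil, lymphocyte, stellate cell, sinusoidal endothelium, adipocyte and intestine markers. Each gene was centred over all arrays, and the level of a list on an array was the median of its genes. Probe positions are mm9, per the file's annotation. Whether a probe lies in an exon, intron or UTR was not determined. The number of arrays limits the precision. Alternatives covered background correction, normalization, the filter on dim probes, the choice of probe, slide, replicate number and leaving out each array.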

Additional observations from a re-analysis of the deposited data

How the results depend on the processing

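With 3 arrays per group, leaving out 1 moved the counts of features past the threshold between 51 and 578 for HFD+APS against HFD (265 with all), 365 and 2711 for HFD against chow (1929) and 21 and 1608 for HFD+APS against chow (614). The count of the 9 genes past the threshold was 0 in each of these fits, except for 1 (Cyp27a1) in HFD+APS against HFD without HFD+APS 1. In that fit no HFD+APS array shared the HFD slide, so diet and slide cannot be told apart. In the same order of comparisons, no filter on dim probes gave 79, 798 and 224 features among more tested, and slide as a random block gave 164, 684 and 165. Fitting only the groups compared gave 25 and 347 features for the comparisons of HFD+APS with HFD and with chow, and a replicate block gave 82 and 296; the cause was not tested for these settings. No pairing of the livers by replicate number was seen (r between -0.17 and 0.16 over 9 same-numbered pairs, 0 of 9 arrays closest to their own number). With 3 arrays per group this check cannot exclude a pairing, and 0 members passed with the block. Among the 9 genes, normexp gave 1 call for HFD+APS against HFD and 1 for HFD against chow (both Cyp27a1), the mean over probes gave 1 (Klb, HFD against chow), and leaving out HFD+APS 1 gave 1 (Cyp27a1). Of 540 values of single genes under the alternatives, 511 kept direction and side of the threshold, 4 passed it and 25 turned sign, all of them far from it; the cause was not tested.

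Ranges here are over the fits that left out 1 array. In HFD+APS against HFD, Cyp7a1 turned within the slide (-0.15), and Hsd3b7 ranged between -0.085 and 0.0068, turning without HFD 2 (0.0068) or HFD+APS 2 (0.00059). In HFD against chow, Cyp7a1 turned with the mean over probes (0.019), its other probe (0.17) or without chow 3 (0.14), HFD 1 (0.010) or HFD 3 (0.20), within a range of -0.62 to 0.20, and Cyp8b1 turned without chow 1 (0.057, range -0.56 to 0.057). Fgfr4 turned there with normexp (-0.00043), quantile normalization (-0.013), the authors' deposited table (-0.0021), the mean over probes (-0.0039), the probe A_52_P144363 (-0.16) or without chow 3 (-0.036) or HFD 2 (-0.0036). Its range was -0.036 to 0.056. In HFD+APS against chow, Cyp39a1 turned without chow 2 (-0.13) or HFD+APS 3 (-0.094), within a range of -0.13 to 0.29, and Klb with the mean over probes (-0.050) or its second probe (-0.31). Slc27a5 turned there with normexp (-0.025), quantile normalization (-0.0013) or without chow 1 (-0.023), chow 3 (-0.027) or HFD+APS 1 (-0.021), within a range of -0.027 to 0.074.

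Settings for Cyp7b1, Spry2, Tat, Cps1 and Cidea were chosen after seeing the data. The Cyp7b1 call for HFD+APS against HFD was lost with no filter (adjusted p = 0.0607), only the groups compared (0.0804), the replicate block (0.0785) and slide as a fixed block (0.0919, with 1 HFD+APS array set against HFD), and that for HFD against chow with no filter (0.0769), slide as a random block (0.0841) and the replicate block (0.0743). Spry2 turned for HFD+APS against HFD without HFD 3 (-0.021) or HFD+APS 1 (-0.088, range -0.088 to 0.37). Its call for HFD against chow was lost with normexp (0.0949), the mean over probes (0.0551), no filter (0.0824) and slide as a random block (0.0803). Cidea kept both calls in all 9 fits that left out 1 array, and its call for HFD+APS against HFD was lost with only the groups compared (0.0728), where it passed for HFD+APS against chow (0.0349).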
